A study of Homo sapiens with 7 samples.

Results

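Genes of the BMP, activin and TGF-beta pathway were examined in 7 cell lines of Hodgkin lymphoma (HL), U-HO1, SUP-HD1, L-540, L-428, L-1236, KM-H2 and HDLM-2. The list held 46 genes, taken as ligands, receptors, SMADs, secreted or membrane antagonists, and intracellular regulators, and 45 of them had at least 1 probe set annotated with that gene alone. These 45 genes were read by 128 of the 54675 probe sets on the array and stood among 19775 genes measured in all. BMPR1A, a type I BMP receptor, had no such probe set and was not analysed here. The labels give no treatment, and the lines were told apart by the name in the sample title. How else the lines differ was not examined here. Each line was profiled from total RNA on 1 Affymetrix HG U133 Plus 2.0 array, so there was no replicate and no test between lines. Each is an established culture from 1 tumour, so a value speaks for that culture. The arrays came from 2 laboratories that the sources used here do not assign to lines, and laboratory and line cannot be told apart.

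Ligands of this family are secreted as dimers and bind pairs of type I and type II serine/threonine kinase receptors. The activated type I receptor phosphorylates receptor-regulated SMADs. SMAD1, SMAD5 and SMAD9 carry signals from BMP receptors, SMAD2 and SMAD3 those from activin and TGF-beta receptors, and both groups enter the nucleus with SMAD4 to regulate target genes. SMAD6 and SMAD7 are inhibitory members, SMURF1 and SMURF2 are ubiquitin ligases that mark SMADs and receptors for degradation, and SKI and SKIL are corepressors that bind SMADs. In B-cells and T-cells TGF-beta is known for restraint of growth, and HL tissue is known for TGF-beta made by the tumour cells. BMP signalling was one of the inputs studied for the homeobox gene MSX1 in the work these arrays belong to, and SMURF2 was another of its subjects.

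Expression is given as the deposited log2 level, where a difference of 1 means a 2-fold difference in signal. A level belongs to 1 probe set, the one with the highest mean over the lines, and levels of different genes were not set against each other. Statements on background refer to that probe set unless another is named. Background was set on each array at the 95th percentile of the 107 probe sets for olfactory receptors, genes of the nose. It was 5.59 in L-1236 and lay between 4.49 (SUP-HD1) and 4.86 (HDLM-2) elsewhere. Probe sets of 1 gene were compared after each was centred on its mean over the lines, so an SD between them concerns the pattern over lines. For probe sets with a mean above the mean background, the pooled SD was 0.54. This was taken as the technical spread, which can also hold differences between transcripts. SDs given for single genes used the same centring and all probe sets of the gene. The arrays of L-1236 and U-HO1 stood apart. L-1236 had the highest background, and U-HO1 had an 18S ribosomal RNA level of 11.12, against 5.23 to 7.06 in the other lines, and an ACTB signal that was 2.11 higher at the 3′ than at the 5′ probe set, against 0.06 to 0.54. The array of U-HO1 had an SD of 0.82 between probe sets of a gene and that of L-1236 an SD of 0.67, against 0.41 to 0.45 on the remaining arrays. The part of these array properties in the values of L-1236 and U-HO1 was not tested. Of 6 marker genes of Hodgkin and Reed-Sternberg cells, IRF4, FUT4, CCL17 and FSCN1 were above background in all lines, TNFRSF8 (CD30) in all except SUP-HD1, where it read 4.36, and TRAF1 in all except L-1236, where it read 4.97. Of 6 markers of fibroblasts and stroma, COL3A1, LUM and POSTN were below background in every line, COL1A2 and PDGFRB were above it in 1 line each, and COL1A1 was above it in all 7. All 5 T-cell markers were above background in at least 1 line and none in all. CD2 was highest in HDLM-2 at 8.95, with L-540 next at 7.28, and CD3D was highest in KM-H2 at 8.89. In HDLM-2, however, CD3D, CD3E, CD3G and CD7 were below background. In KM-H2, CD3E and CD7 were below background and CD2 was at its lowest, 2.67. CD3E was above background in L-540 alone, at 4.71, CD3G in KM-H2 alone, at 4.91, and CD7 was highest in L-1236, at 5.63. Of 4 measured B-cell markers, PAX5 was above background in 6 lines, CD22 in 5 and CD79A in 3, and MS4A1 (CD20) was below it in all lines.

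Of the 45 measured members, 38 (84.4%) were above background in at least 1 line, against 73.3% of all genes, and 13 (28.9%) were above it in all 7 lines, against 34.6% of all genes. The members with signal in every line were BMP7, GDF11, TGFB1, ACVR1, ACVR1B, ACVR2A, TGFBR3, SMAD2, SMAD4, SMAD5, SMURF2, SKI and SKIL. Those with signal in no line, at the probe set used, were BMP3, BMP5, BMP6, TGFB2, TGFBR2, NOG and GREM1. The highest line lay at least 2 above the lowest in 25 of the 38 members (65.8%), against 50.2% of all genes with signal. Their median range was 2.53, against 2.00 over all genes with signal. Without L-1236 and U-HO1 the count was 20 of 36 members (55.6%), against 30.8% of all genes. With values below background raised to it, 17 of 38 members (44.7%) had a range of at least 2, against 36.9% of all genes. In 9 members (23.7%) the highest line was above background and at least 1 above the next line, against 16.8% of all genes with signal, and in 6 members (15.8%) the lowest line was at least 1 below the next, against 11.7%. By line, the number of members above background was 27 in HDLM-2, KM-H2 and L-428, 28 in L-540, 26 in SUP-HD1, 30 in U-HO1 and 19 in L-1236, where 43.5% of all genes were above background against 53.4% to 58.8% elsewhere.

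**Figure D1:**
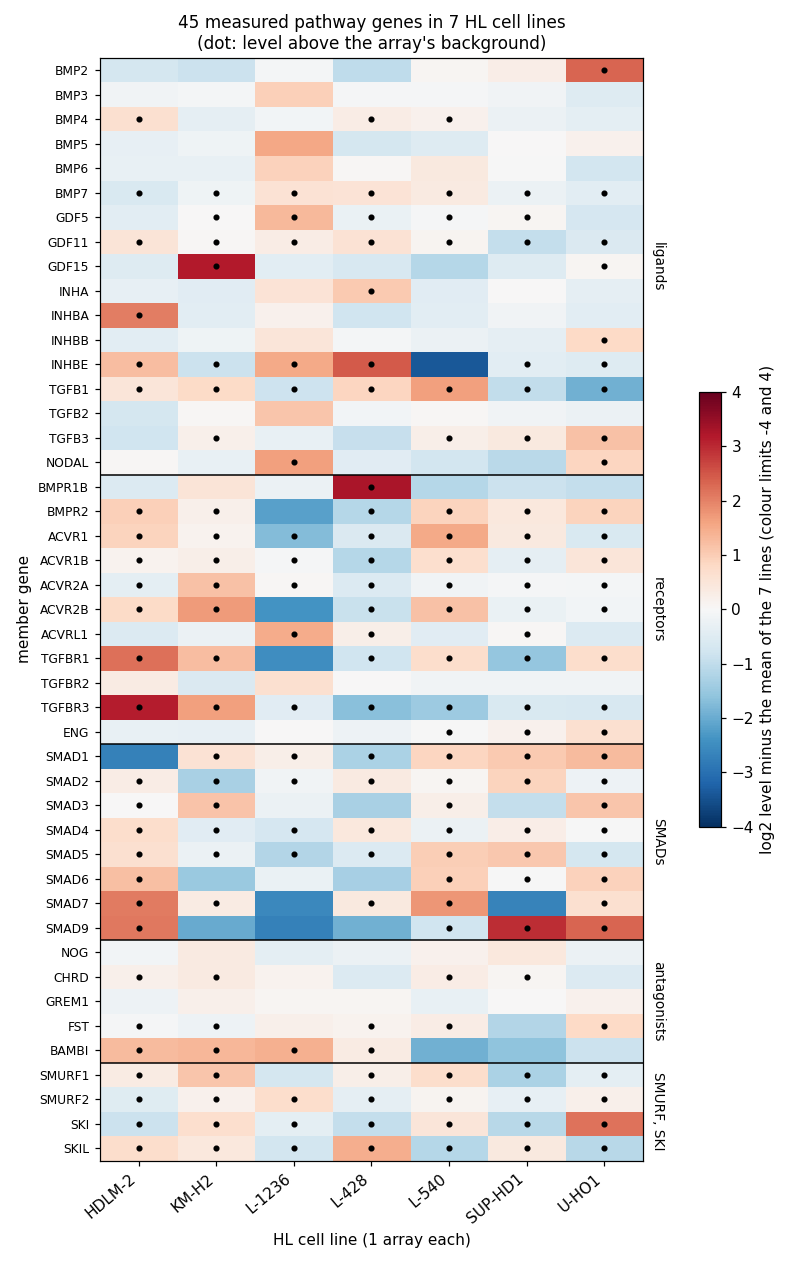
Log2 level of the 45 measured pathway genes (rows, by class) in the 7 HL cell lines (columns, 1 array each), as the difference from the mean of the 7 lines, from blue (lower) to red (higher). A black dot marks a level above the background of that array. Single red cells show genes high in 1 line, such as GDF15 in KM-H2 and BMPR1B in L-428, and SMAD9 is red in HDLM-2, SUP-HD1 and U-HO1.

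Among the 17 ligands, 13 (76.5%) were above background in at least 1 line, against 73.3% of all genes. A range of at least 2 was found for 7 of the 13 (53.8%), against 50.2% of all genes with signal. BMP2, INHBA, GDF15 and GDF5 were each high in a single line, and in each case in a different one. BMP2, which activates the BMP receptors, read 6.16 in U-HO1, 4.10 in SUP-HD1, 3.91 in L-540, 3.78 in L-1236, 3.14 in HDLM-2, 3.0 in KM-H2 and 2.82 in L-428. Only U-HO1 was above background, and the same held at the other BMP2 probe set, with 5.38 in U-HO1 and 2.67 to 3.82 in the other lines. The range was 3.34, or 1.67 with values below background raised to it. INHBA encodes the subunit that forms activin A. INHBA read 6.19 in HDLM-2, 4.33 in L-1236, 4.01 in SUP-HD1, 3.73 in KM-H2, L-540 and U-HO1, and 3.36 in L-428. HDLM-2 alone was above background, and this was also so at a further INHBA probe set, with 6.66 in HDLM-2 against 2.28 to 3.92 in the other lines, while at its last probe set no line was above background. GDF15, a distant member of the family that acts through its own receptor and rises in stressed cells, read 8.07 in KM-H2, 4.97 in U-HO1, 4.46 in L-1236, 4.36 in HDLM-2 and SUP-HD1, 4.23 in L-428 and 3.73 in L-540. KM-H2 lay 3.10 above the next line at this probe set, 221577_x_at, whose suffix marks a possible match to other transcripts. At both other GDF15 probe sets every line was below background, and KM-H2 read 3.0 and 4.08 there.

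INHBE, which encodes the activin E subunit and is known from liver and from stress responses, went the other way and was low in a single line. It read 8.56 in L-428, 7.61 in L-1236, 7.34 in HDLM-2, 5.68 in SUP-HD1, 5.58 in U-HO1, 5.24 in KM-H2 and 2.72 in L-540. L-540 was the only line below background and lay 2.52 below KM-H2. The range of 5.84 was 4.05 with L-540 raised to background, and INHBE had a single probe set. Of the other inhibin and activin subunits among the members, INHA was above background in L-428 alone, at 4.86, and INHBB in U-HO1 alone, at 4.61 against a background of 4.59.

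TGFB1, the main TGF-beta of immune cells, was above background in all 7 lines. It read 9.0 in L-540, 8.22 in L-428, 8.12 in KM-H2, 7.85 in HDLM-2, 6.53 in L-1236, 6.37 in SUP-HD1 and 5.44 in U-HO1. L-540, L-428, KM-H2 and HDLM-2 formed the upper group, and the lowest of them lay 1.32 above L-1236. At the other TGFB1 probe set, 203084_at, L-1236 read highest, at 5.53 and below its background, and HDLM-2 lowest at 3.73, so the order rests on 203085_s_at. TGFB3 read 6.32 in U-HO1, 5.52 in SUP-HD1, 5.38 in L-540, 5.34 in KM-H2, 4.84 in L-1236, 4.36 in HDLM-2 and 4.23 in L-428. It was above background in U-HO1, SUP-HD1, L-540 and KM-H2, with the other probe set below background in all lines. TGFB2 was below background at all 5 of its probe sets in every line.

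NODAL, a ligand of the early embryo that signals through activin receptors, was above background in L-1236 at 6.44 and in U-HO1 at 5.68. In the remaining lines it read 4.86 in HDLM-2, 4.53 in KM-H2, 4.36 in L-428, 4.08 in L-540 and 3.73 in SUP-HD1. A further NODAL probe set was also above background in these 2 lines, at 5.70 and 4.81, and both come from the arrays that stood apart. GDF5, a ligand of joint and cartilage development, read 6.35 in L-1236, 5.16 in SUP-HD1, 5.09 in KM-H2, 5.03 in L-540, 4.81 in L-428, 4.63 in HDLM-2 and 4.40 in U-HO1. L-1236 lay 1.19 above the next line, on the array with the highest background. BMP4, the ligand with which the study stimulated an HL line not analysed here, stayed near background. BMP4 read 5.29 in HDLM-2, 4.97 in L-428, 4.84 in L-540, 4.54 in L-1236, 4.43 in SUP-HD1, 4.31 in KM-H2 and 4.26 in U-HO1, and only HDLM-2, L-428 and L-540 were above background, by at most 0.43. BMP7 had signal in all lines, from 5.29 in HDLM-2 to 6.48 in L-1236, at 1 of its 4 probe sets, whereas at 209591_s_at no line was above it. GDF11 had signal in all lines as well, from 4.98 in SUP-HD1 to 6.51 in L-428, and in 6 lines at 3 further probe sets.

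**Figure D2:**
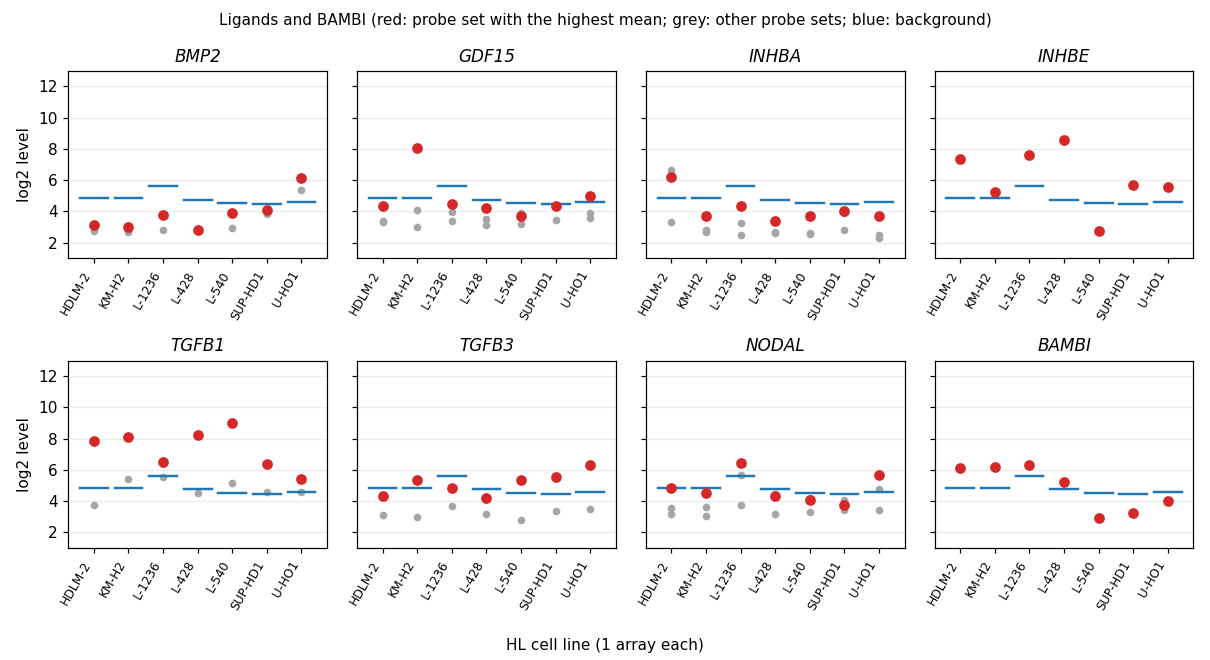
Log2 level (vertical axis) of 7 ligands and of BAMBI by HL cell line (horizontal axis, 7 lines, no replicate arrays). A red point is the probe set of highest mean, a grey point any further probe set of that gene, and a blue bar the array's background. BMP2 is above background in U-HO1 alone, INHBA in HDLM-2 alone, and INHBE is below background in L-540 alone.

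Of the 11 measured receptors, 10 (90.9%) were above background in at least 1 line, against 73.3% of all genes. A range of at least 2 was found for 7 of the 10 (70.0%), against 50.2% of all genes with signal. The activin and BMP receptors ACVR1, ACVR1B, ACVR2A, ACVR2B and BMPR2 were each above background in at least 6 lines. The type I receptors BMPR1B and ACVRL1 were above it in only 1 and 3 lines. TGFBR2, the type II receptor without which TGF-beta does not signal, gave little or no signal. TGFBR2 read 4.58 in L-1236, 4.29 in HDLM-2, 3.96 in L-428, 3.82 in L-540, SUP-HD1 and U-HO1, and 3.36 in KM-H2, below background in every line. Its other probe set, 208944_at, read 5.29 in HDLM-2 and 5.25 in L-428, above background in these 2 lines only, and 2.67 to 3.56 in the other 5. TGFBR1, its type I partner, read 9.84 in HDLM-2, 8.88 in KM-H2, 8.35 in U-HO1, 8.34 in L-540, 6.85 in L-428, 6.08 in SUP-HD1 and 5.15 in L-1236. HDLM-2 was highest at all 3 TGFBR1 probe sets, and L-1236 was the only line below background. TGFBR3 (betaglycan) is a coreceptor that presents TGF-beta2 and inhibins. It read 10.07 in HDLM-2, 8.57 in KM-H2, 6.46 in L-1236, 6.30 in SUP-HD1, 6.29 in U-HO1, 5.47 in L-540 and 5.25 in L-428. HDLM-2 was highest and L-428 lowest at both TGFBR3 probe sets, with HDLM-2 1.50 above KM-H2 at the first and 1.92 at the other, and the SD between them was 0.30.

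BMPR1B, a type I BMP receptor of skeletal and ovarian tissue, was high in L-428 alone. It read 7.27 in L-428, 4.53 in KM-H2, 3.78 in L-1236, 3.48 in HDLM-2, 3.15 in SUP-HD1, 3.06 in U-HO1 and 2.87 in L-540. L-428 was the only line above background at all 3 BMPR1B probe sets, at 7.27, 7.76 and 5.41. BMPR2, the type II receptor for BMPs, read 7.02 in HDLM-2, 6.95 in L-540 and U-HO1, 6.49 in SUP-HD1, 6.29 in KM-H2, 4.92 in L-428 and 3.90 in L-1236. The first 5 lines lay within 0.73 of each other, and L-1236 was below background. Of the 4 BMPR2 probe sets with signal, 3 were lowest in L-1236, and the exception, 209920_at, read 4.67 to 5.89 in all lines.

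ACVR1 (ALK2), a type I receptor for BMPs and activin, was above background in every line, at 9.06 in L-540, 8.46 in HDLM-2, 7.96 in SUP-HD1, 7.68 in KM-H2, 6.97 in L-428, 6.94 in U-HO1 and 5.81 in L-1236. ACVR2B, a type II activin receptor, read 8.03 in KM-H2, 7.48 in L-540, 7.08 in HDLM-2, 6.22 in U-HO1, 6.04 in SUP-HD1, 5.44 in L-428 and 3.92 in L-1236. L-1236 was thus the lowest line for BMPR2, ACVR1, ACVR2B and TGFBR1, although at only 1 of 3 probe sets with signal for ACVR2B and for TGFBR1. L-1236 was the lowest line in 7 of 38 members (18.4%), against 28.9% of all genes with signal, and lowest by at least 1 in 3 (7.89%), against 6.88%. ACVR2A read 6.78 in KM-H2, 5.65 in L-1236, 5.56 in SUP-HD1, 5.52 in U-HO1, 5.47 in L-540, 5.20 in HDLM-2 and 5.06 in L-428. KM-H2 was highest at both ACVR2A probe sets, at 6.89 in the other one, where U-HO1 followed at 5.17 and the remaining lines were below background. ACVRL1 (ALK1), a type I receptor of endothelial cells, read 6.32 in L-1236, 5.06 in L-428, 4.86 in SUP-HD1, 4.60 in KM-H2, 4.37 in L-540, and 4.29 in HDLM-2 and U-HO1. At its other probe set, 226950_at, L-1236 read highest, at 5.15 and below its background, and KM-H2 alone was above background, at 5.03. ACVR1B (ALK4), the type I activin receptor, lay between 5.33 in L-428 and 7.14 in L-540, with no line below background, and ENG, an endothelial coreceptor, reached 5.48 in U-HO1.

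**Figure D3:**
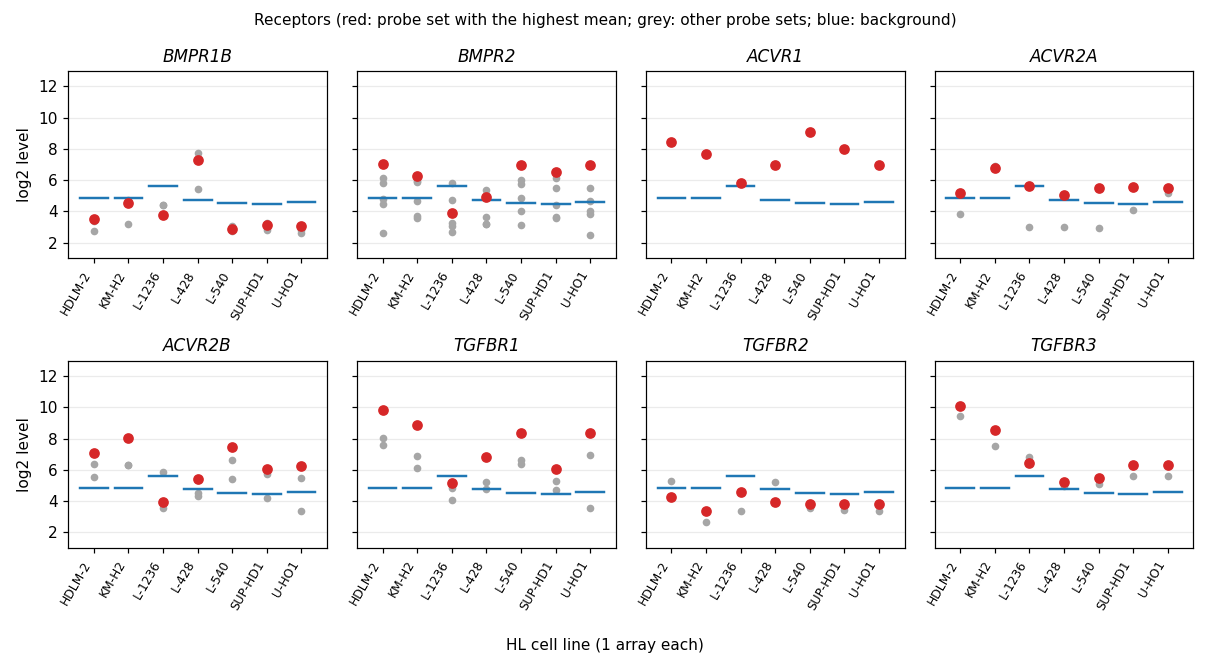
Log2 level (vertical axis) of 8 receptors by HL cell line (horizontal axis, 7 lines, no replicate arrays). A red point is the probe set of highest mean, a grey point any further probe set of that gene, and a blue bar the array's background. BMPR1B is above background in L-428 alone, TGFBR3 is highest in HDLM-2, and TGFBR2 rises above background only at a grey point in HDLM-2 and in L-428.

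All 8 SMADs were above background in at least 1 line, against 73.3% of all genes. A range of at least 2 was found for 7 (87.5%), with SMAD4 as the exception, against 50.2% of all genes with signal. The BMP-regulated SMADs were not the same in each line. SMAD9 read 8.90 in SUP-HD1, 8.27 in U-HO1, 8.05 in HDLM-2, 5.14 in L-540, 4.02 in L-428, 3.91 in KM-H2 and 3.24 in L-1236. It was above background in SUP-HD1, U-HO1, HDLM-2 and L-540, and the lowest of the upper 3 lay 2.91 above L-540. These levels come from 227719_at, since at the other SMAD9 probe set SUP-HD1 alone was above background, at 5.47, and the SD between both was 1.58. SMAD1 read 7.69 in U-HO1, 7.48 in SUP-HD1, 7.28 in L-540, 6.99 in KM-H2, 6.66 in L-1236, 5.15 in L-428 and 3.73 in HDLM-2. HDLM-2 was the only line below background at this probe set, 210993_s_at. At 227798_at L-1236 and L-428 were below background too, at 3.97 and 4.43, and at 208015_at U-HO1 alone was above it. HDLM-2 was the lowest and U-HO1 the highest line at all 3 probe sets. SMAD5 was above background in every line, at 8.77 in SUP-HD1, 8.68 in L-540, 8.34 in HDLM-2, 7.46 in KM-H2, 7.15 in L-428, 6.99 in U-HO1 and 6.53 in L-1236. At the probe sets used, HDLM-2 thus had SMAD5 and SMAD9 above background and SMAD1 below it, KM-H2, L-1236 and L-428 had SMAD1 and SMAD5 but not SMAD9, and SUP-HD1, U-HO1 and L-540 had all 3. The probe sets of SMAD5 did not agree in U-HO1, which was the lowest line at 3 of 5, down to 3.49, and the highest at another, at 7.07.

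SMAD2, which like SMAD3 serves activin and TGF-beta, had signal in every line, and SMAD3 in some. SMAD2 read 9.86 in SUP-HD1, 9.32 in L-428, 9.25 in HDLM-2, 9.05 in L-540, 8.83 in L-1236, 8.77 in U-HO1 and 7.68 in KM-H2. SUP-HD1 was the highest line at 5 of 6 SMAD2 probe sets, at 1 of them level with U-HO1, and KM-H2 was lowest at 3. SMAD3 read 6.11 in KM-H2, 6.06 in U-HO1, 5.19 in L-540, 4.98 in HDLM-2, 4.71 in L-1236, 4.01 in SUP-HD1 and 3.66 in L-428. At this probe set, 218284_at, KM-H2, U-HO1, L-540 and HDLM-2 were above background, whereas at 205397_x_at and 205398_s_at SUP-HD1 was above it, at 4.86 and 4.79, and HDLM-2 below it. KM-H2 had the lowest SMAD2, and the highest SMAD3 at 2 of the 3 probe sets with signal. SMAD4, the shared partner, ranged from 7.21 in L-1236 to 8.58 in HDLM-2.

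The inhibitory SMADs were absent from the signal of some lines. SMAD7, which blocks TGF-beta and BMP receptors, read 7.56 in HDLM-2, 7.24 in L-540, 6.11 in U-HO1, 5.87 in L-428, 5.79 in KM-H2, 2.90 in L-1236 and 2.81 in SUP-HD1. L-1236 and SUP-HD1 were below background, and the lowest of the other lines lay 2.89 above them, at the only SMAD7 probe set. SMAD6, which prefers BMP signals, read 6.26 in HDLM-2, 5.99 in L-540, 5.96 in U-HO1, 5.04 in SUP-HD1, 4.77 in L-1236, 3.73 in L-428 and 3.55 in KM-H2. The order of SMAD6 rests on 207069_s_at, since the other probe sets with signal were highest in L-1236, at 5.70, and in SUP-HD1, at 4.72. HDLM-2, L-540 and U-HO1 were the 3 highest lines for SMAD7 and for SMAD6 at the probe sets used. At the SMAD6 probe set 209886_s_at, however, HDLM-2 was the lowest line, at 4.29 and below background.

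**Figure D4:**
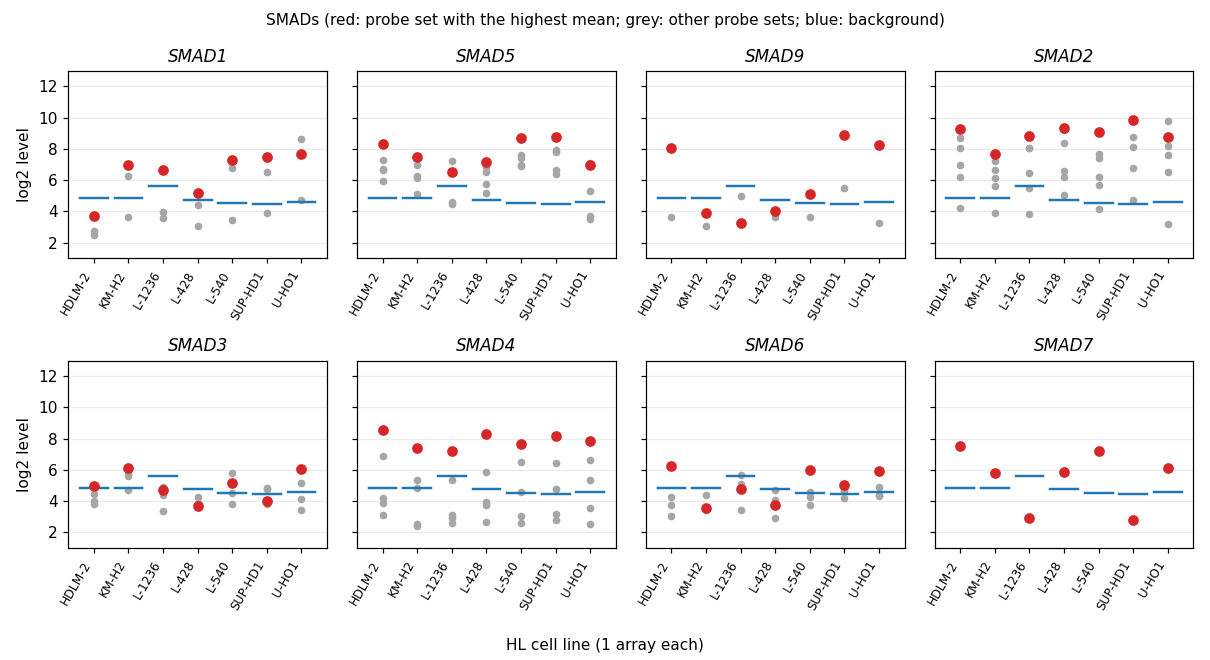
Log2 level (vertical axis) of the 8 SMADs by HL cell line (horizontal axis, 7 lines, no replicate arrays). A red point is the probe set of highest mean, a grey point any further probe set of that gene, and a blue bar the array's background. SMAD9 separates SUP-HD1, U-HO1 and HDLM-2 from the other lines, SMAD1 is below background in HDLM-2, and SMAD7 in L-1236 and SUP-HD1.

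SMAD6 and SMAD7 are known feedback targets of the pathway, and ID1 and ID3 are known targets of BMP signals, so the 250 bases upstream of their starts are shown, from RefSeq on GRCh38.p14. SMAD proteins are known to bind the palindrome GTCTAGAC and the element CAGAC, and BMP-regulated SMADs also bind the GC-rich elements GGCGCC and GGAGCC. These 4 motifs were searched on both strands and are in capitals, with the last base next to the start, and none of them overlapped in the stretches shown. SMAD6 lies at chr15:66701986-66702235 on the + strand, SMAD7 (the first of 3 starts) at chr18:48950966-48951215 on the - strand, ID1 at chr20:31605039-31605288 on the + strand and ID3 at chr1:23559502-23559751 on the - strand.
SMAD6: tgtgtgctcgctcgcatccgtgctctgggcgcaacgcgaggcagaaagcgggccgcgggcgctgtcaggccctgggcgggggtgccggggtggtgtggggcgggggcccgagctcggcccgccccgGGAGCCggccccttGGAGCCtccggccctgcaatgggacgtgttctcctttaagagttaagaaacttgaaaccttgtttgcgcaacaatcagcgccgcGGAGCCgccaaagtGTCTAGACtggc
SMAD7: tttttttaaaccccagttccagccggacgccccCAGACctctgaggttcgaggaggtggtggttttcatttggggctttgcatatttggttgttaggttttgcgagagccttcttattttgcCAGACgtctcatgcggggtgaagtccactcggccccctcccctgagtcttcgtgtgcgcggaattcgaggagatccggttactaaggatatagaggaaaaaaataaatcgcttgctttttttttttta
ID1: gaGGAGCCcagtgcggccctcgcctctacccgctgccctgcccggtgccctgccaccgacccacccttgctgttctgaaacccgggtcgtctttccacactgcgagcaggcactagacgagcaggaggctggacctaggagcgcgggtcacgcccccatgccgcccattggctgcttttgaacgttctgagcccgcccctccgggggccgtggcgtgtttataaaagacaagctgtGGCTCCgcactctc
ID3: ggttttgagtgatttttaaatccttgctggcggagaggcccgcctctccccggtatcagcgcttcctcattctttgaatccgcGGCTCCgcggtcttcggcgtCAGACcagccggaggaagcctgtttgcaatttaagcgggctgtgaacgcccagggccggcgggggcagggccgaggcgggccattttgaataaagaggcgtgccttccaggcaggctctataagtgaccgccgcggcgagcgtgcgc

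GTCTAGAC was found in SMAD6 alone among the member promoters, ending 5 bases before the start, and 0.182% of 35116 such windows of 27305 genes hold it. CAGAC was found in SMAD7 and ID3, and 38% of all windows hold it. GGAGCC was found in SMAD6, ID1 and ID3, and 30.6% of all windows hold it, while GGCGCC was in none of the stretches shown and in 16.4% of all windows. Of the members, 39 matched the promoter table by symbol, with 67 windows, of which 38.8% held CAGAC, 23.9% GGCGCC and 44.8% GGAGCC. A match is a description of letters and not evidence of binding.

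Among the antagonists, NOG (noggin) and GREM1 (gremlin), which trap BMPs, were below background in all lines, with NOG at 2.52 to 3.35 and GREM1 at 2.35 to 2.83. BAMBI, a receptor-like protein without kinase that dampens signalling, read 6.29 in L-1236, 6.19 in KM-H2, 6.11 in HDLM-2, 5.20 in L-428, 4.01 in U-HO1, 3.25 in SUP-HD1 and 2.95 in L-540. The first 4 lines were above background and the other 3 below it, and the range of 3.34 became 1.80 with low values raised to background. FST (follistatin), which binds activin, was above background in 5 lines and highest in U-HO1, at 5.99, with SUP-HD1 at 4.01 and L-1236 at 5.38 below it. At a further FST probe set U-HO1 alone was above background, at 5.25. CHRD (chordin) did not exceed 5.09 in any line.

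SMURF2 was above background in all 7 lines at the probe set used, 205596_s_at. SMURF2 read 7.73 in L-1236, 7.23 in U-HO1, 7.19 in KM-H2, 7.13 in L-540, 6.69 in SUP-HD1, 6.66 in L-428 and 6.53 in HDLM-2. Its range of 1.20 there was below 2, and the SD between SMURF2 probe sets was 0.73. A range over 7 lines cannot be read against an SD directly, and whether this range exceeds the technical spread was not tested. At 2 other SMURF2 probe sets the lines differed more. The first, 227489_at, read 7.05 in U-HO1 and 6.16 in KM-H2 and was below background in the other lines, and 230820_at read 5.56 in L-540, 5.29 in U-HO1, 5.28 in SUP-HD1 and 5.03 in KM-H2, with the rest below background and HDLM-2 lowest at 2.74. SMURF1 read 6.89 in KM-H2, 6.48 in L-540, 6.11 in HDLM-2, 6.01 in L-428, 5.39 in U-HO1, 5.09 in L-1236 and 4.51 in SUP-HD1. At this probe set L-1236 was below background and SUP-HD1 just above it. At 215458_s_at both were above background, at 5.70 in L-1236 and 5.16 in SUP-HD1, and U-HO1 alone was below it, at 3.92.

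SKI read 8.19 in U-HO1, 6.69 in KM-H2, 6.50 in L-540, 5.63 in L-1236, 5.15 in HDLM-2, 5.06 in L-428 and 4.92 in SUP-HD1. U-HO1 lay 1.50 above KM-H2, but at the other SKI probe sets it read 5.85 and 4.46 and was not the highest line. SKIL (SnoN) read 8.99 in L-428, 8.25 in HDLM-2, 7.97 in KM-H2, 7.93 in SUP-HD1, 6.80 in L-1236, 6.43 in U-HO1 and 6.38 in L-540. L-428 was highest at all 3 SKIL probe sets with signal, and L-540 and U-HO1 were the lowest pair of lines at each of them.

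Further genes of the pathway were counted from lists of 76 genes, of which 67 were measured. Of these, 49 (73.1%) were above background in at least 1 line, against 73.3% of all genes. A range of at least 2 was found for 30 of the 49 (61.2%), against the 50.2% of all genes given above. Of 6 BMP target genes, 5 (83.3%) were above background in at least 1 line, against 73.3% of all genes. A range of at least 2 was found for 4 of the 5 (80.0%), against 50.2% of all genes with signal. ID1, a helix-loop-helix inhibitor induced by BMPs, read 8.25 in U-HO1, 8.22 in SUP-HD1, 4.43 in HDLM-2, 4.31 in KM-H2, 3.20 in L-540, and 2.97 in L-1236 and L-428. Only U-HO1 and SUP-HD1 were above background, 2 of the 3 lines with high SMAD9, while HDLM-2, the third, was not. ID3 read 9.90 in U-HO1, 7.49 in KM-H2, 5.96 in L-540, 4.50 in HDLM-2, 3.92 in SUP-HD1, 3.73 in L-428 and 3.36 in L-1236. U-HO1 was thus the highest line for ID3, and for ID1 it lay only 0.03 above SUP-HD1, less than the technical spread of 0.54. SUP-HD1 had ID1 and not ID3, and KM-H2 and L-540 had ID3 and not ID1. U-HO1 was also the only line with BMP2 above background, and its array was 1 of the 2 that stood apart. A link of these levels to BMP2 or SMAD9 was not tested. ID1 and ID3 each had a single probe set.

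ID2 had signal in all lines, at 12.23 in SUP-HD1, 11.73 in HDLM-2, 11.62 in KM-H2, 11.57 in L-540, 11.31 in U-HO1, 10.81 in L-1236 and 8.73 in L-428. L-428 was lowest at both ID2 probe sets and was the line with BMPR1B. MSX1 read 7.52 in KM-H2, 5.91 in SUP-HD1, 5.15 in L-428, 4.77 in L-1236, 4.06 in HDLM-2, 3.32 in U-HO1 and 3.11 in L-540. It was above background in KM-H2, SUP-HD1 and L-428, and below it in U-HO1, which had the highest ID1 and ID3. The other MSX1 probe set was below background in every line. Of the other BMP targets listed, MSX2 was below background in all lines and ID4 reached 4.70 in U-HO1.

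Of 8 TGF-beta target genes listed, 7 were measured and 4 (57.1%) were above background in at least 1 line, against 73.3% of all genes. A range of at least 2 was found for 3 of the 4 (75.0%), against 50.2% of all genes with signal. CDKN1A (p21) ran from 6.03 in L-428 to 9.65 in SUP-HD1 and JUNB reached 10.87 in L-540, with U-HO1 lowest at 7.50, both above background in all lines. CDKN2B (p15) was above background in L-1236 alone, at 6.06, with the other lines at 3.32 to 3.73, while CCN2, TGFBI and SNAI2 were below it in all lines. Of 8 other receptors and coreceptors with a probe set, 7 (87.5%) were above background in at least 1 line, against 73.3% of all genes. A range of at least 2 was found for 5 of the 7 (71.4%), against 50.2% of all genes with signal. ACVR1C (ALK7), a type I receptor for NODAL and activins, read 8.18 in L-540, 7.64 in HDLM-2, 5.92 in KM-H2 and 5.47 in SUP-HD1, and was below background in L-1236, L-428 and U-HO1. LRRC32 (GARP), which holds latent TGF-beta at the cell surface, read 8.06 in L-428, 7.16 in L-1236, 6.57 in U-HO1, 5.47 in KM-H2 and 5.33 in SUP-HD1, and was below background in HDLM-2 and L-540. NRROS, a relative of LRRC32 that also holds latent TGF-beta, was instead highest in L-540, at 7.22, and RGMB, a BMP coreceptor, in HDLM-2, at 7.34.

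Among 9 measured genes for storage and activation of ligands, 8 (88.9%) were above background in at least 1 line, against 73.3% of all genes. A range of at least 2 was found for 5 of the 8 (62.5%), against 50.2% of all genes with signal. FURIN, the protease that cleaves TGF-beta precursors, read 8.88 in L-540 and 5.72 to 6.86 in the other lines, and ITGAV, the integrin chain that can release latent TGF-beta, 10.20 in L-540 and 5.87 to 8.41 in the others. L-540 was also the line with the highest TGFB1, at 1 of 2 probe sets, and the highest NRROS. For LTBP4, a further gene of this list, and for LRRC32, L-540 was instead the lowest line, at 3.99 each and below background. THBS1, another activator, was above background in HDLM-2 alone, at 5.78, and LTBP1, a binding protein of latent TGF-beta, in L-428 at 5.37 and U-HO1 at 6.04. Of 11 further secreted antagonists, 4 (36.4%) were above background in at least 1 line, against 73.3% of all genes. Among them were TWSG1, at 4.79 in SUP-HD1 against 6.81 to 8.49 in the other lines, and NBL1, at 7.38 in HDLM-2 and 6.92 in KM-H2. Of 14 further intracellular regulators, 13 (92.9%) were above background in at least 1 line, against 73.3% of all genes. A range of at least 2 was found for 7 of the 13 (53.8%), near the 50.2% of all genes with signal. TGIF1, a corepressor of SMAD2, was below background in L-1236 at 2.67 and in SUP-HD1 at 2.88 and read 5.25 to 6.99 in the others at 203313_s_at. At 244858_at both lines were instead above background, with L-1236 highest at 5.76 and SUP-HD1 at 4.72. NEDD4L, a ubiquitin ligase for SMAD2 and SMAD3, was below background in U-HO1 alone, at 3.90 at 212445_s_at, and reached 8.04 in SUP-HD1. PPM1A, a SMAD phosphatase, was lowest in L-1236 at 7.25, and FKBP1A, which holds type I receptors inactive, was lowest in U-HO1 at 8.16 and highest in L-540 at 10.95. For the 12 other measured ligands, signal in at least 1 line was seen in 8 (66.7%), against 73.3% of all genes. Among these 8, 4 (50.0%) had a range of at least 2, near the 50.2% of all genes with signal. INHBC peaked in U-HO1, with 7.69. MSTN (myostatin) exceeded background only in U-HO1, with 5.48, and GDF7 only in L-540, with 5.19. BMP8B exceeded it in 4 lines, up to 6.22 in L-540. BMP8B is a near copy of BMP8A, and its probe sets may read both.

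**Figure D5:**
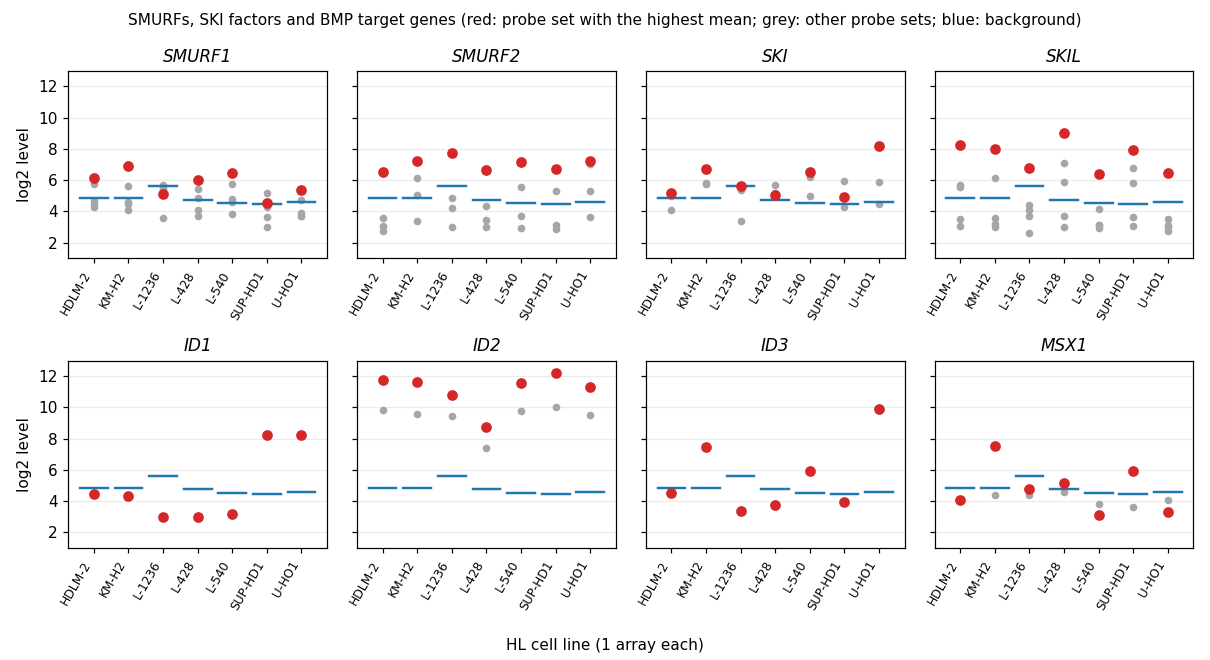
Log2 level (vertical axis) of SMURF1, SMURF2, SKI and SKIL and of the BMP target genes ID1, ID2, ID3 and MSX1 by HL cell line (horizontal axis, 7 lines, no replicate arrays). A red point is the probe set of highest mean, a grey point any further probe set of that gene, and a blue bar the array's background. ID1 is above background in SUP-HD1 and U-HO1 only, ID3 in KM-H2, L-540 and U-HO1, and SMURF2 at its red probe set in all lines.

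Probe sets of a gene did not always give the same order of lines. Of 28 members with at least 2 probe sets above background somewhere, 12 had the same highest line at all of these and 4 the same lowest line. This count was not made over all genes, so whether it is high or low for this array is not known. The 12 were BMP2, INHBA, NODAL, BMPR1B, ACVR2A, ACVRL1, TGFBR1, TGFBR3, SMAD1, SMAD9, FST and SKIL. The count did not ask that the highest line be above background. For ACVRL1 it was not at 226950_at, where L-1236 read 5.15 against a background of 5.59. The median difference of the 38 members with signal from the mean of the lines was 0.25 in HDLM-2, 0.15 in KM-H2, 0.11 in L-540, -0.09 in U-HO1, -0.13 in L-1236, -0.23 in SUP-HD1 and -0.41 in L-428, against -0.29 in L-1236 and values between -0.03 and 0.05 in the other lines over all genes with signal.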

How the data were processed

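Total RNA of 7 HL cell lines had been hybridised to 1 array each. By the authors' RMA procedure the signals were background-corrected, quantile-normalized and summarised, and log2 levels were deposited per probe set. The values ran from 1.99 to 14.17. Named in the submitters' notes on processing are affy, limma and RMA, with versions not given in the sources used here. All value columns were used. Probe sets took their gene from the platform annotation (41097 with 1 gene, 1801 with several, 11777 with none), symbols were updated through gene IDs of the RefSeq table of GRCh38, and only probe sets with 1 gene were used. Groups came from the sample titles, 1 line each. Counts used a range of at least 2 or a gap of at least 1 between lines. Genes were named by rule, namely all members, and up to 4 genes with the largest range in each further pathway list, and other genes named were chosen after their values were seen. Members and lists (pathway lists, and marker lists for Hodgkin, stroma, T-cells and B-cells) were chosen with earlier results of these data known. The counting was tested on simulated data. Work was done in Python 3.11.15 with pandas 2.3.3 and numpy 2.4.6. Alternatives took another probe set, scaling, background, threshold or set of lines. With 7 arrays in all, precision is limited by their number.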

Additional observations from a re-analysis of the deposited data

Results flagged for a closer look

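In 10 of the 45 members (22.2%) 1 line was set apart from the other 6, its distance from the neighbouring line being most of the gene's range, and so it was in 5 of the 25 further pathway genes named by rule. The same was so for 12.3% of all genes. The nominal rate of the rule, about 1 in 20, is not the rate seen in these data. The further genes were picked for a large range, so these rates do not serve for them. BMP2 in U-HO1 read 6.16 with SUP-HD1 next at 4.10. GDF15 in KM-H2 read 8.07 with U-HO1 next at 4.97, and ACVR2A in KM-H2 6.78 with L-1236 next at 5.65. INHBA in HDLM-2 read 6.19 with L-1236 next at 4.33, and BMPR1B in L-428 read 7.27 with KM-H2 next at 4.53. In L-1236, the array with the highest background, GDF5 read 6.35 with SUP-HD1 next at 5.16 and ACVRL1 6.32 with L-428 next at 5.06. BMP3 at 4.65, BMP5 at 5.29 and TGFB2 at 4.86 were also highest in L-1236, yet below its background of 5.59. Among the further genes, MSTN read 5.48 in U-HO1 with KM-H2 next at 3.28, FURIN 8.88 in L-540 with SUP-HD1 next at 6.86, and CDKN2B 6.06 in L-1236 with L-428 next at 3.73. INHBC was lowest in L-1236, at 4.65 with SUP-HD1 next at 6.56, and ID2 lowest in L-428, at 8.73 with L-1236 next at 10.81. No explanation of these values was tested.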

How the results depend on the processing

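The members above background in at least 1 line numbered 38 and stayed between 32 and 40 under every alternative run. With the probe set of largest variance, 5 members were above background in all lines. With the mean of all probe sets, 5 were, 15 had a range of at least 2, 2 were low in 1 line, and 19 of the further pathway genes had a range of at least 2. Without probe sets ending in _x_at or _s_at, that last number was 17. Values below background raised to it left 2 members low in 1 line. A range of 3 in place of 2 gave 15 members and 17 further genes, and a gap of 2 in place of 1 gave 3 members high and 1 low in 1 line. Without L-1236 and U-HO1, 25 of 38 members kept their highest line, as lines that were highest had been left out. Leaving out each line in turn gave 12 to 17 members above background in all lines, 22 to 25 with a range of at least 2, 8 to 11 high and 5 to 10 low in 1 line (10 without SUP-HD1), 25 to 29 further genes, and 29 to 35 members with the same highest line. Of 463 ranges of single members under alternatives 370 stayed within the technical spread of the reported value, and of 850 differences of an extreme line from the others 8 changed sign, 6 of them with a size of at least 1. SMAD5 in L-1236 turned to 0.17 with the probe set of largest variance. SMAD6 in HDLM-2 turned to -0.090 with the mean of all probe sets and to -1.12 without _x_at and _s_at probe sets, where GDF15 in KM-H2 turned to -0.60. SKI in SUP-HD1 turned to 0.25 without L-1236 and U-HO1 and to 0.30 without U-HO1, and it lay between -1.51 and 0.30 when single lines were left out. The cause was not tested. No paired analysis was possible because there was 1 array for each line. Signal over background limits low genes, above all in L-1236.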
